A study of Mus musculus with 28 samples.

Results

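The genes described here are 7 transport genes of the absorptive colonocyte, the surface cell of the colon that takes up water and salts. They were chosen by symbol: every probe set that the authors' comparison table lists, in its human-style names, as AQP8, SLC26A3, TRPM6, CA1, CA4, S100G or SLC37A2. This gave 12 of the 26933 probe sets of that table and 7 of the 14123 genes tested, called here by their mouse symbols Aqp8, Slc26a3, Trpm6, Car1, Car4, S100g and Slc37a2. The choice did not use measured values, although earlier results of these data were known when it was made.

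RNA of proximal and of distal colon tissue from C57BL/6J mice, all female, was measured on Affymetrix arrays. Untreated mice gave 6 proximal and 6 distal arrays. Treated mice received 1 injection of the colon carcinogen azoxymethane (AOM, 10 mg per kg) into the abdomen and, starting 96 hours later, cycles of 2.5% dextran sulfate sodium (DSS), which injures the colon lining, for 5 days in the drinking water, each followed by 14 days of plain water. Early mice went through 2 cycles and were killed on day 42 (3 proximal and 3 distal arrays), and late mice went through 4 cycles and were killed on day 120 (4 proximal and 6 distal arrays). Per the labels, the distal colon showed dysplasia in early mice and dysplasia with intramucosal adenocarcinoma in late mice, whereas the proximal colon was unaffected. The labels give the arrays as separate mice within a group but do not link a proximal to a distal array, and they give no ages. The tissue was whole, so a lower level can come from fewer cells of a type or from less RNA per cell, and these cannot be told apart.

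The colonocyte absorbs chloride in exchange for bicarbonate through Slc26a3, and carbonic anhydrases make the bicarbonate and protons that this exchange uses. Aqp8 is a water channel of the surface epithelium, Trpm6 is a magnesium-permeable channel of the apical membrane, and S100g, calbindin-D9k, carries calcium through the cytosol of absorptive cells. Slc37a2 is a sugar phosphate carrier of the endoplasmic reticulum. As colonocytes migrate up the crypt to the surface they switch these genes on, under factors that include the HNF4, CDX and KLF families, and several of them are used as markers of the mature cell.

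Promoters from RefSeq (GRCm38.p6, 250 bases before to 50 after the start of the gene) were available for 6 members, and the 4 that hold the letters of an HNF4 or a CDX site are printed, since the factor lists described further on include these families. Capitals mark matches to CAAAGNNCA, the letters of an HNF4 site, or to TTTAT, the letters of a CDX site. Both strands were searched, and a CDX match on the other strand reads ATAAA. The first lies at chr12:31437969-31438268 and the second at chr7:123462044-123462343, both on the + strand, the third, of Car4, at chr11:84957504-84957803 on the + strand, and the fourth at chrX:162964550-162964849 on the - strand.
Slc26a3: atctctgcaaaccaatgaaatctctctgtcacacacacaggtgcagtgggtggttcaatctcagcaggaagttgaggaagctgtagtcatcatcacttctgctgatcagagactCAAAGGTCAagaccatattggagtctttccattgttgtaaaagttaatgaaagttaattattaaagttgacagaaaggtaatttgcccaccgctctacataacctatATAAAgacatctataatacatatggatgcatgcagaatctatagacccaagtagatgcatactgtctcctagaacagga
Aqp8: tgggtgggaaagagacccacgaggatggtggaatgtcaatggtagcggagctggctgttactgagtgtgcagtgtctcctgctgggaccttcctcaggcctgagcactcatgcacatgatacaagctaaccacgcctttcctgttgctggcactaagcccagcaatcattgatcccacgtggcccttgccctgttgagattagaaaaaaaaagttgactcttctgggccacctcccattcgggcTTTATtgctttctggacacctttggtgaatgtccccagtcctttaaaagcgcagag
Car4: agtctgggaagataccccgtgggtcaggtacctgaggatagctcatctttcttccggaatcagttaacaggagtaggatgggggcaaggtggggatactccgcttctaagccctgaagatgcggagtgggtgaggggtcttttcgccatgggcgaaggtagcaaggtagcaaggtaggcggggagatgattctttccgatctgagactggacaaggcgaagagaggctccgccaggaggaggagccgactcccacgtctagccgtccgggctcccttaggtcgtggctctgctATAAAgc
S100g: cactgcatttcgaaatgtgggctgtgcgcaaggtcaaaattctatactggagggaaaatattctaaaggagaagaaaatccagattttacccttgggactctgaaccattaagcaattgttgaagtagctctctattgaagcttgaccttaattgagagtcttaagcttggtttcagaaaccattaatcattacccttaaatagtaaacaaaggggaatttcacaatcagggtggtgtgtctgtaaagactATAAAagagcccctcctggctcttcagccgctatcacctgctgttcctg

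The HNF4 letters were found in 1 of the 6 promoters, that of Slc26a3, where they read CAAAGGTCA from position -136 relative to the start. They occur in 6.359% of the 32851 promoters searched. The CDX letters were found in 4 of the 6, at -29 in Slc26a3, at -6 in Aqp8, at 2 in S100g and at 44 in Car4, and they occur in 40.01% of promoters. These letters are also part of the TATA box. The short KLF letters CACCC, on either strand, were found in 5 of the 6 and occur in 57.52% of promoters. A match describes the letters in this window and nothing about binding.

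Values are log2 expression after RMA, an array method that corrects the background, equalises the distributions and summarises each probe set, so that 1 unit is a doubling. Where a gene had several probe sets, the one with the highest mean stood for it. Differences are given with the moderated standard error (SE) of limma, fitted to all 28 arrays, and a gene was called where the p-value adjusted over all 14123 genes was under 0.05. Levels are compared between samples and not between genes.

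Before the results, some arrays need naming. By the mean of 6 posterior Hox genes, which mark the distal colon, the array labelled untreated proximal 1 (1.47 relative to the mean of all arrays) lay with the distal arrays, and the array labelled untreated distal 3 (-1.83) lay with the proximal arrays, while late proximal 3 was between them at -0.43. The values of the 6 early arrays carry more digits than those of the other 22 (over 6 digits in at least 50.71% of values, against 0.0%) and look like averages, so that this trait cannot be told apart from the early state. The arrays untreated proximal 1, untreated distal 1, early distal 3 and late distal 2, 3 and 5 stood high in pancreatic acinar markers. Array medians lay between 6.608 and 6.799. All comparisons with untreated mice of a region share the same 6 untreated arrays.

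In the untreated colon, all 7 genes were expressed at high levels in both regions, and none was called between them by limma (0 at an unadjusted p under 0.05), where 9.8% of all genes were called. The distal minus proximal difference ran from -0.33 ± 0.48 for Slc37a2 to 0.51 ± 0.29 for Car4. Behind these averages, Car1 lay at 14.08 to 14.10 in 5 of the 6 untreated proximal arrays and at 13.30 in untreated proximal 1, and at 13.50 to 13.69 in 5 of the 6 untreated distal arrays and at 14.09 in untreated distal 3. The 5 and the 5 did not overlap. Untreated distal 3 had the level of the proximal arrays, and untreated proximal 1 lay below all of the distal ones. Without both arrays the Car1 difference was -0.48 ± 0.16 and was called (adjusted p = 0.032 in limma, against 0.341 with them). For Slc37a2, 5 of the proximal arrays lay at 12.77 to 12.92 and untreated proximal 1 at 10.39, below every untreated distal array. Its difference without both arrays was -0.82 ± 0.46 (adjusted p = 0.206). Car4 went the other way, with 12.80 in untreated distal 3 against 13.23 to 13.43 in the other distal arrays, and its difference without both was 0.64 ± 0.32 (adjusted p = 0.143).

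Late in the model, all 7 genes were lower in the distal colon than in the untreated distal colon, where 22.6% of all genes were called lower. The median difference of the 7 was -1.72 on the log2 scale, against 0.0 for all genes. That median is the value of 1 of the 4 probe sets of Slc26a3, and with the others in its place it was -2.53 or -2.57. In addition, 5 of the 7 (Aqp8, Slc26a3, Trpm6, Car1 and Slc37a2) had no overlap between the groups, which 9.57% of all genes showed in this direction. In the late proximal colon, from mice of the same stage, none of the 7 was called against the untreated proximal colon, where 0.0212% of all genes were called. At an unadjusted p under 0.05 the count was also 0, and the authors' deposited table calls none of them there either. In early mice, 2 were called lower in the distal colon (4.25% of all genes) and 3 in the proximal colon (2.61% of all genes), with Slc37a2 in both. The plot of levels by group shows each gene in turn.

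**Figure D1:**
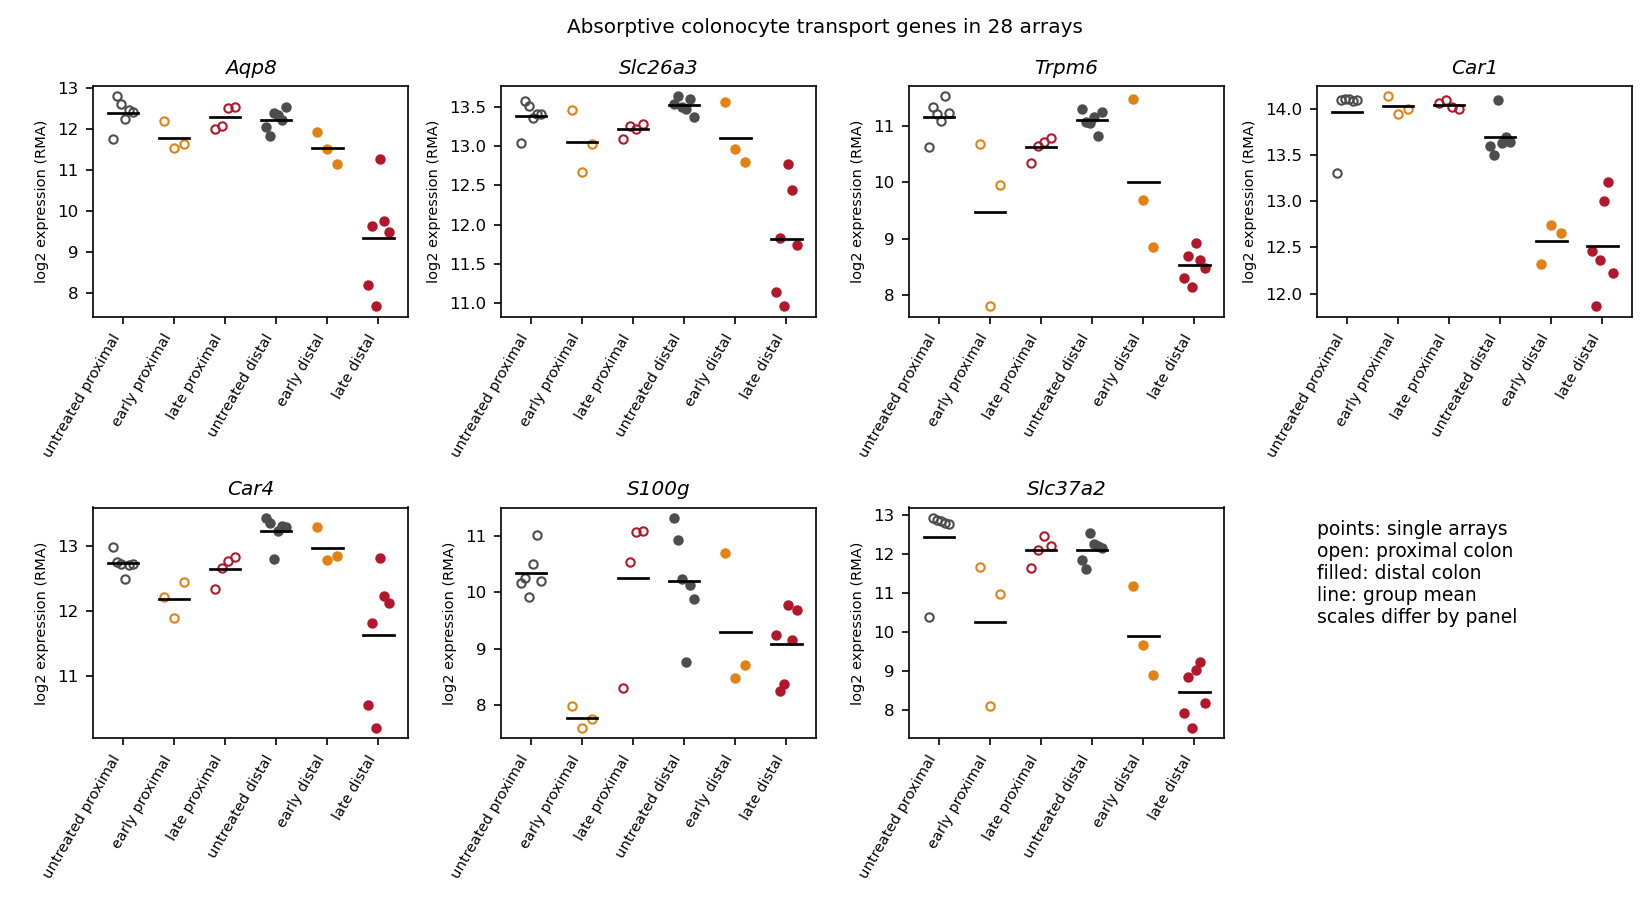
Log2 expression (RMA) of the 7 transport genes in each of the 28 arrays, in 6 groups, proximal arrays open and distal arrays filled, with a line at the group mean; the vertical scales differ by panel. The late distal group mean is the lowest for every gene except S100g, whose lowest values are the 3 early proximal arrays (7.60 to 7.99).

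Aqp8, the water channel, was the gene of the late distal colon with the widest spread. In the untreated distal colon it lay between 11.84 and 12.54 (median 12.29), and in the late distal colon between 7.67 and 11.27 (median 9.55). The highest late distal array, number 4, lay below the untreated range, and the other 5 were at 9.76 or lower. The early distal arrays read 11.94, 11.51 and 11.14, of which 1 fell within the untreated range. In the proximal colon the untreated arrays ran from 11.76 to 12.80 (median 12.45), the early arrays read 12.19, 11.54 and 11.65, and the late arrays 12.00, 12.08, 12.52 and 12.55. The proximal groups overlapped.

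The late distal group mean of Aqp8 (9.33 ± 1.27 SD, n = 6) was 7.48-fold below that of untreated distal colon and 2.20 ± 0.44 log2 units below early distal (adjusted p = 0.000949 in limma). Early distal was not called against untreated (-0.71 ± 0.44, adjusted p = 0.362). In order of level, the other 5 groups followed each other from 12.39 to 11.53 with no neighbouring pair called, and only the step down to late distal was. In late mice, Aqp8 differed by -2.95 ± 0.40 log2 units between distal and proximal colon (adjusted p = 3.65e-06).

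Slc26a3, the chloride and bicarbonate exchanger, fell at the same stage. Untreated distal arrays lay between 13.38 and 13.64 (median 13.53) and late distal arrays between 10.95 and 12.78 (median 11.79). All 6 late arrays were below all untreated ones. The early distal arrays read 13.57, 12.97 and 12.80, so that by the highest-mean probe set early distal 1 had an untreated level and the others did not. Early proximal arrays read 13.47, 12.67 and 13.03, and late proximal arrays 13.10, 13.26, 13.22 and 13.29, against 13.05 to 13.58 (median 13.42) in untreated proximal colon. The proximal groups overlapped here too.

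Slc26a3 in late distal colon differed from early distal by -1.30 ± 0.27 (adjusted p = 0.00109 in limma), whereas early distal was not called against untreated (-0.42 ± 0.27, adjusted p = 0.372). Its order of levels was like that of Aqp8, with 5 groups from 13.53 to 13.06 in which no neighbours were called, and late distal 1.24 below the lowest of them (adjusted p = 0.000891). The size of its fall depends on the probe set. The probe set used above has the highest level and gave -1.72 ± 0.22. The other 3 gave -2.53 ± 0.32, -3.11 ± 0.40 and -3.08 ± 0.40, and all 4 were called, so that by 2 of the probe sets its fall was larger than that of Aqp8 (-2.90) and by the other 2 smaller. The highest value in the whole table is 14.509, and the untreated mean of the first probe set is 13.53. Whether its signal is limited at the top of the range was not tested. For early against untreated distal colon, the other 3 probe sets gave -0.88 ± 0.39, -1.17 ± 0.49 and -1.23 ± 0.49. None of these was called, but each had an unadjusted p under 0.05 in limma. By the probe set with -0.88, all early distal arrays (11.33 to 12.30) lay below all untreated ones (12.58 to 12.68). By the rest, the ranges overlapped.

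**Figure D2:**
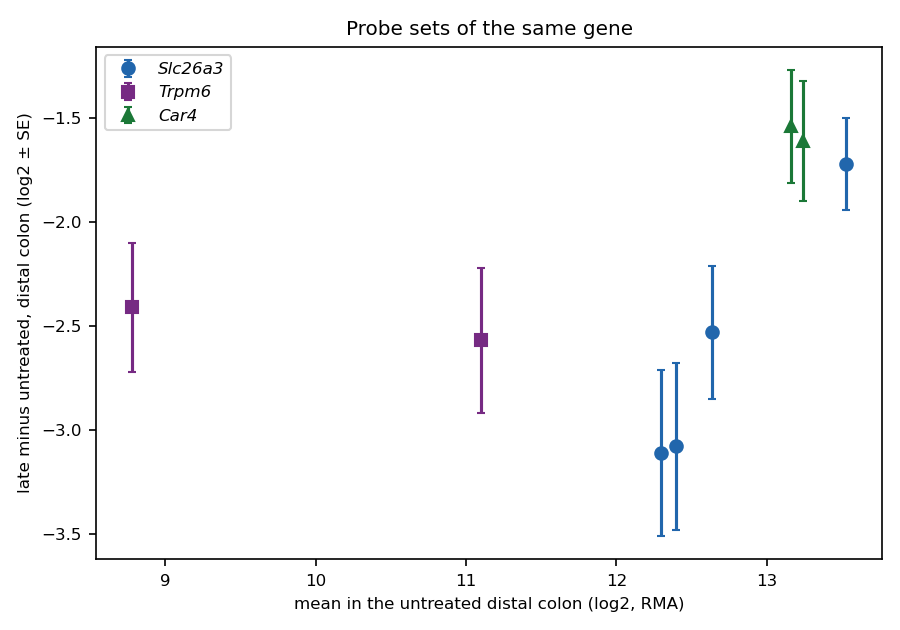
Late minus untreated difference in the distal colon (log2, with SE) against the untreated distal mean (log2, RMA) for the 4 probe sets of Slc26a3, the 2 of Trpm6 and the 2 of Car4. The Slc26a3 probe set with the highest level shows the smallest fall (-1.72), while the 2 probe sets of Trpm6 (-2.57 and -2.41) and of Car4 (-1.61 and -1.54) differ by less than their SE.

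Car1 and Car4 are both carbonic anhydrases, Car1 of the cytosol and Car4 bound to the outer face of the membrane, and their time courses in the distal colon differed. Car1 read 12.32, 12.74 and 12.65 in the early distal arrays, all below the untreated distal range of 13.50 to 14.09 (median 13.63). The late distal arrays lay between 11.86 and 13.21 (median 12.41), also all below it and on both sides of the early values. Car1 was thus called at both stages, by -1.12 ± 0.21 early (adjusted p = 0.00096 in limma) and -1.17 ± 0.17 late (adjusted p = 7e-06), and late and early distal colon differed by -0.05 ± 0.21 (adjusted p = 0.885). In the proximal colon the early arrays read 14.13, 13.94 and 14.00 and the late arrays 14.06, 14.09, 14.02 and 14.00, close to the 14.08 to 14.10 of 5 untreated arrays. These levels are near the highest value of the table, and whether a rise could have been seen was not tested.

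Car1 was the member with a called difference between the regions in early mice, at -1.45 ± 0.25 for distal minus proximal (adjusted p = 0.00434, where 1.27% of all genes were called lower). The difference of its early responses between the regions was -1.18 ± 0.30, and limma called no gene in that comparison (0.0% of all genes, adjusted p = 0.923 for Car1), although 2 of the 7 members had an unadjusted p under 0.05. With array weights it was -0.98 and called. In order of level, the 3 proximal groups and the untreated distal colon, from 14.04 to 13.69, had no neighbours called, then came a step of 1.12 to early distal, with late distal beside it.

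Car4 was late. Its early distal arrays read 13.29, 12.78 and 12.85, against 12.80 to 13.43 (median 13.30) in untreated distal colon, and were not called (-0.26 ± 0.35, adjusted p = 0.72). The late distal arrays ran from 10.20 to 12.81 (median 11.97), and 1 of the 6 (late distal 4) lay within the untreated range, where untreated distal 3 sets the lower end. The late difference was -1.61 ± 0.29 (adjusted p = 5.79e-05 in limma) from untreated and -1.35 ± 0.35 (adjusted p = 0.0068) from early distal colon. Without early distal 1 the latter was -1.19 ± 0.41 and was not called (adjusted p = 0.056). Proximal values were 12.49 to 12.98 (median 12.73) untreated, 12.21, 11.89 and 12.45 early and 12.34, 12.66, 12.77 and 12.83 late. All 3 early proximal arrays were below all untreated ones, but the difference was not called (-0.55 ± 0.35, adjusted p = 0.324). No neighbours in its order of the 6 groups were called, from untreated distal (13.24) to late distal (11.62).

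Trpm6, the magnesium channel, split the early arrays widely. Untreated distal arrays lay between 10.82 and 11.29 (median 11.11) and late distal arrays between 8.15 and 8.92 (median 8.55), with no overlap. The early distal arrays read 11.48, 9.69 and 8.85, from above the untreated range down to the late range. The early proximal arrays read 10.68, 7.80 and 9.96, against 10.63 to 11.52 (median 11.21) in untreated and 10.35, 10.65, 10.72 and 10.79 in late proximal colon. Early proximal 2 thus had the lowest Trpm6 value of the 28 arrays.

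Trpm6 was called in the early proximal colon (-1.69 ± 0.43, adjusted p = 0.0161 in limma) and not in the early distal colon (-1.09 ± 0.43, adjusted p = 0.106). Both depend on 1 array. Without early proximal 2 the proximal difference was -0.85 (adjusted p = 0.23), and without early distal 1 the distal difference was -1.83 (adjusted p = 0.00231). The late distal difference, -2.57 ± 0.35, was called with and without any 1 array. From early to late distal colon Trpm6 differed by -1.48 ± 0.43 (adjusted p = 0.014), and by -0.74 (adjusted p = 0.24) without early distal 1. In its order of groups, from untreated proximal (11.17) to late distal (8.53), no neighbours were called.

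Slc37a2, the sugar phosphate carrier, had the largest late fall of the 7, at 12.5-fold. Untreated distal arrays lay between 11.61 and 12.54 (median 12.18), and late distal arrays between 7.55 and 9.24 (median 8.52). The early distal arrays read 11.17, 9.66 and 8.91, all below the untreated range, and 1 of them was within the late range. Early proximal arrays read 11.66, 8.11 and 10.98, and late proximal arrays 11.65, 12.10, 12.45 and 12.21. All of these lay below 5 of the untreated proximal arrays and above the exception, untreated proximal 1, apart from early proximal 2.

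Slc37a2 was called at both early sites, at -2.19 ± 0.59 in the distal (adjusted p = 0.0153 in limma) and -2.18 ± 0.59 in the proximal colon (adjusted p = 0.025). Without early proximal 2 the proximal value was -1.11 (adjusted p = 0.278). The distal value without early distal 2 was -2.07 (adjusted p = 0.0812) and without early distal 3 -1.69 (adjusted p = 0.193). Late distal colon differed from early distal by -1.45 ± 0.59, which was not called (adjusted p = 0.077). Late proximal colon was at -0.33 ± 0.54 from untreated, and no neighbours in the order of groups were called, from untreated proximal (12.43) to late distal (8.46).

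S100g, calbindin-D9k, stood apart from the other 6 in where it was lowest. The early proximal arrays read 7.99, 7.60 and 7.75, all well below the untreated proximal range of 9.91 to 11.01 (median 10.22). The late proximal arrays read 8.31, 10.53, 11.06 and 11.08, of which the first was near the early level and the rest were at or above the untreated one. The untreated distal arrays were themselves spread, from 8.77 to 11.31 (median 10.17), and overlapped with the early distal values of 10.70, 8.48 and 8.72 and with the late distal values of 8.25 to 9.77 (median 9.20).

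S100g was called in the early proximal colon at -2.56 ± 0.54 (adjusted p = 0.00487 in limma), and without early proximal 2 it was -2.46 (adjusted p = 0.0573). It was called higher in late than in early proximal colon (2.47 ± 0.59, adjusted p = 0.0481, where 0.163% of all genes were called higher), a call that ended in most alternatives. The late distal fall of 1.12 ± 0.44 (adjusted p = 0.0387) was the smallest of the 7, and the authors' deposited table gives it a step-up p of 0.0597. It was -0.42 without the arrays that hold pancreatic transcripts and -0.51 with untreated arrays 4 to 6 alone, neither of which was called. The late distal and late proximal levels differed by -1.16 ± 0.50 (adjusted p = 0.067), and by -1.81 (adjusted p = 0.003) without late proximal 1. In its order of groups no neighbours were called, from untreated proximal (10.34) through late distal (9.08) to early proximal (7.78).

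**Figure D3:**
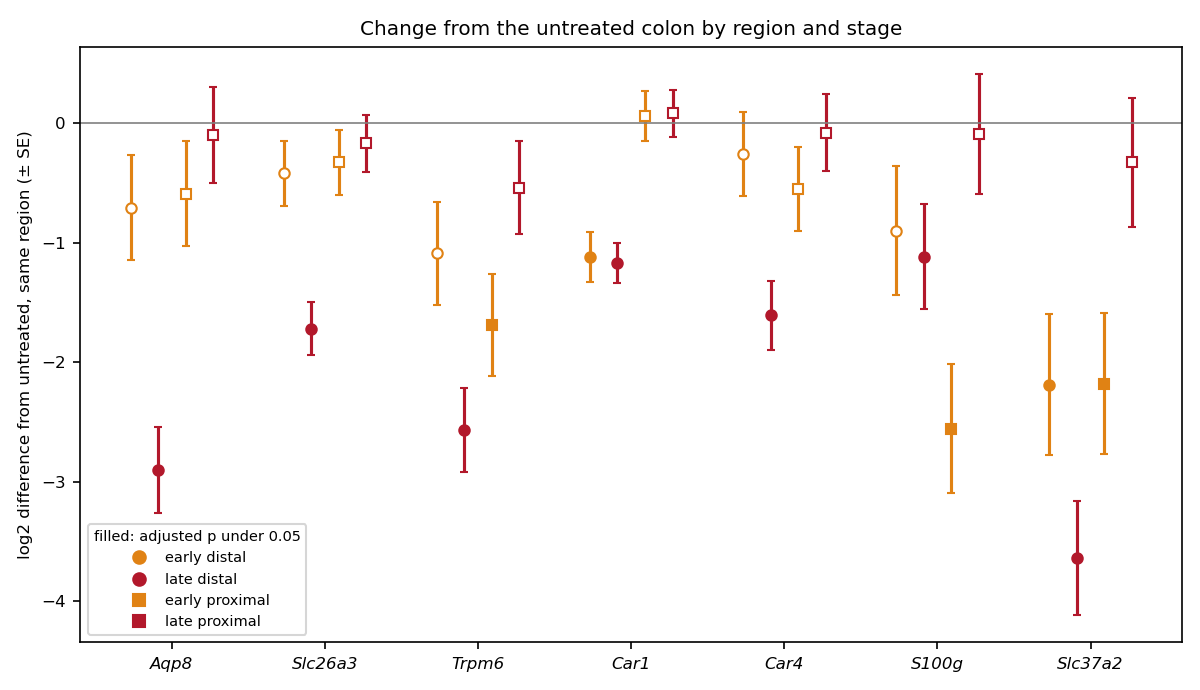
Log2 difference from the untreated colon of the same region, with SE, for early (orange) and late (red) mice in the distal (circles) and the proximal colon (squares); filled symbols have an adjusted p under 0.05 in limma. All 7 late distal values are filled and no late proximal value is, and Car1 has almost the same distal value early (-1.12) and late (-1.17).

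By stage in the distal colon, then, Car1 and Slc37a2 were called lower in early mice. Aqp8, Slc26a3, Trpm6 and Car4 were called lower in late than in early mice (4 of the 7, where 8.69% of all genes were called lower). Without early distal 1, Trpm6 and Car4 were not called between these stages and 2 of the 7 remained. These groups follow the calls and not the sizes of the changes. From early to late, Slc37a2 was at -1.45 and not called, beside -1.30 for Slc26a3 and -1.35 for Car4. In early mice, Trpm6 was at -1.09 and not called, beside -1.12 for Car1. By region, 6 of the 7 were called lower in the distal than in the proximal late colon (17.8% of all genes), all but S100g. The test of the late response itself, the distal change minus the proximal change, was called for the same 6 (8.49% of all genes). Slc37a2 differed most in that test, at -3.31 ± 0.73 (adjusted p = 0.00243 in limma), then Aqp8 at -2.81 ± 0.54 (adjusted p = 0.000856) and Trpm6 at -2.04 ± 0.52 (adjusted p = 0.00773). The values of Slc26a3 (-1.54), Car4 (-1.53) and Car1 (-1.25) were smaller, but the other 3 probe sets of Slc26a3 gave -2.32, -2.67 and -2.64, beyond the value of Trpm6. S100g was at -1.03 ± 0.66 (adjusted p = 0.29), and at -1.68 (adjusted p = 0.046) without late proximal 1. These 6 calls held without untreated proximal 1 and untreated distal 3. Without late proximal 3 and 4, Car4 (-1.38, adjusted p = 0.0888) and Trpm6 (-1.91, adjusted p = 0.0553) were no longer called.

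The change from the early to the late stage was compared between the regions as well. Its difference, distal minus proximal, was called for 5 genes (0.552% of all genes called lower), at -3.30 ± 0.87 for Slc37a2, -2.69 ± 0.65 for Aqp8, -2.63 ± 0.63 for Trpm6, -1.82 ± 0.52 for Car4 and -1.46 ± 0.39 for Slc26a3, and for Car1 it was -0.07 ± 0.31. S100g, at -2.68 ± 0.80, was as far from 0 as Aqp8 and missed the threshold (adjusted p = 0.0591 in limma). It was called without untreated distal 4, early distal 2, late proximal 1 or late distal 4, at -3.33 (adjusted p = 0.00484) without late proximal 1. The comparison includes the 6 early arrays, and its calls depended on single arrays of both stages. None of the 5 was called without early proximal 2 or without early distal 1, and Car4 (adjusted p = 0.0448) lost its call without most other single arrays as well. Slc26a3 also lost its call without early proximal 3, late proximal 2, 3 or 4, or late distal 1 or 6. Slc37a2 also lost its call without late proximal 2, 3 or 4, or late distal 1 or 3.

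In the treated groups, some arrays were at an end of their group for most of the genes. Early proximal 2 had the lowest value of its group for all 7 genes, and early proximal 1 had the highest for 6. Early distal 1 also had the highest for 6, the exception being Car1, for which it was the lowest. Late distal 3 was lowest for 5 genes and late distal 4 highest for 5. Late proximal 1 was lowest for 6 and late proximal 4 highest for 5. Among untreated arrays, proximal 1 was lowest for 5 genes, whereas no distal array was lowest or highest for more than 3.

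The summed leukocyte markers moved with part of this. The mean of 9 such genes, relative to all arrays, was between -1.15 and -0.51 in untreated arrays. In early proximal arrays 1, 2 and 3 it was 0.01, 1.27 and 0.66, and in early distal arrays 0.02, 1.49 and 1.45, so that in both regions array 1 was the lowest. In late proximal colon it was 1.62 in array 1 and -0.66 to 0.38 in the others, and in late distal colon it was 0.51 to 0.87. Of the 9 genes, 9 were called higher in early distal, 8 in late distal and 7 in early proximal colon (7.02%, 26.0% and 4.98% of all genes were called higher there), and none in late proximal colon, where all 9 had an unadjusted p under 0.05 by limma in the higher direction. Of 8 fibroblast markers 6 were called higher and of 9 smooth muscle markers 8 lower in late distal colon, beside 26.0% of all genes called higher and 22.6% lower. The part of these other cell types in the results was not tested. The mean of the 5 tested markers of all epithelium (12 listed) stayed between -0.24 and 0.18 in all 28 arrays. In late distal colon these markers went both ways. Krt18 was called higher (0.24 ± 0.08, adjusted p = 0.0108 in limma) and Vil1 lower (-0.27 ± 0.09, adjusted p = 0.018), while Epcam (-0.04 ± 0.17), Cldn3 (-0.13 ± 0.12) and Elf3 (0.05 ± 0.15) were not called.

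**Figure D4:**
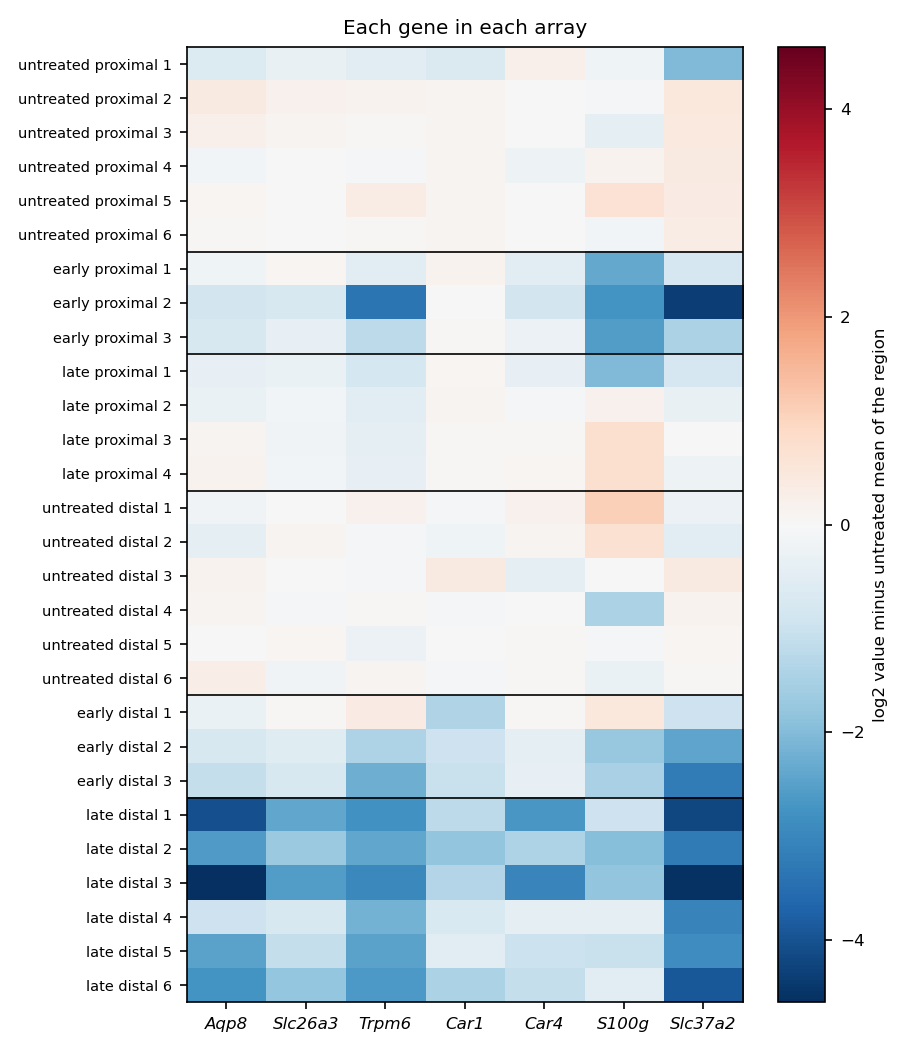
Each array's log2 value minus the mean of the untreated arrays of its region, for the 7 genes (columns) and 28 arrays (rows), blue where lower. The late distal rows are blue in nearly every column, early distal 1 is near 0 for Trpm6 and Slc26a3 but lower for Car1, and untreated proximal 1 is lower for Slc37a2.

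Other genes of the same pathways were described from lists set up around the 7, to be read beside the 22.6% of all genes called lower and the 26.0% called higher in late distal colon. The shares called lower were 4.25% in early distal colon, 2.61% in early proximal colon and 8.69% from early to late distal colon. In late proximal colon 0.0212% of all genes were called in either direction. Of 18 tested genes for anion, bicarbonate and proton transport (22 listed), 10 were called lower in late distal colon and none higher (median -0.46, against 0.0 for all genes). The sodium and proton exchanger Slc9a2 (-2.02 ± 0.26), the sodium bicarbonate cotransporter Slc4a4 (-1.71 ± 0.17) and the sulfate transporter Slc26a2 (-1.38 ± 0.16) fell most, and the chloride channel Cftr fell by 1.33 ± 0.15. Slc9a3, the other sodium and proton exchanger of the surface, was at 11.71 late and 11.46 untreated (0.25 ± 0.23). In early distal colon 2 of the 18 were called lower, Slc4a4 (-0.81 ± 0.21) and Slc4a2 (-0.55 ± 0.17), and none was called in either proximal comparison with untreated colon, where limma gave 2 at an unadjusted p under 0.05 in early and 1 in late mice.

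Of 9 other carbonic anhydrases tested (14 listed), 5 were called lower and 1 higher in late distal colon (median -0.39). Car11 (-0.94 ± 0.15), Car2 of the cytosol (-0.80 ± 0.11) and Car14 of the membrane (-0.72 ± 0.14) fell, and the mitochondrial Car5b rose by 0.87 ± 0.29. The same Car11 (-1.01), Car14 (-0.62) and Car2 (-0.46) were called lower in early distal colon already, and between early and late distal colon none of the 9 was called by limma (2 at an unadjusted p under 0.05). Of 5 other aquaporins tested (10 listed), Aqp11 (-1.27 ± 0.28) was lower and Aqp5 (0.90 ± 0.16) higher, and Aqp4 was at -0.68 ± 0.40 (median -0.20).

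Calcium and magnesium handling gave 10 genes lower and 3 higher of 17 tested (21 listed, median -0.47). The sodium and calcium exchanger Slc8a1 (-2.28 ± 0.41), Cnnm1 (-1.88 ± 0.23) and the calcium buffer calretinin, Calb2 (-1.34 ± 0.18), which is also a marker of enteric neurons, fell. Vdr, the vitamin D receptor, whose target genes include S100g, fell by 1.20 ± 0.15, and Cnnm4, a magnesium exporter of the basolateral membrane, by 1.16 ± 0.13. Against this direction, the apical calcium channel Trpv6 rose by 1.57 ± 0.52 and the magnesium transporter Slc41a1 by 1.55 ± 0.14. Trpm7, the close relative of Trpm6, was at -0.47 ± 0.17 and was called. Of the other Slc37 carriers, Slc37a1 fell by 0.56 ± 0.15, Slc37a3 rose by 0.31 ± 0.12 and Slc37a4 was at -0.11 ± 0.15.

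**Figure D5:**
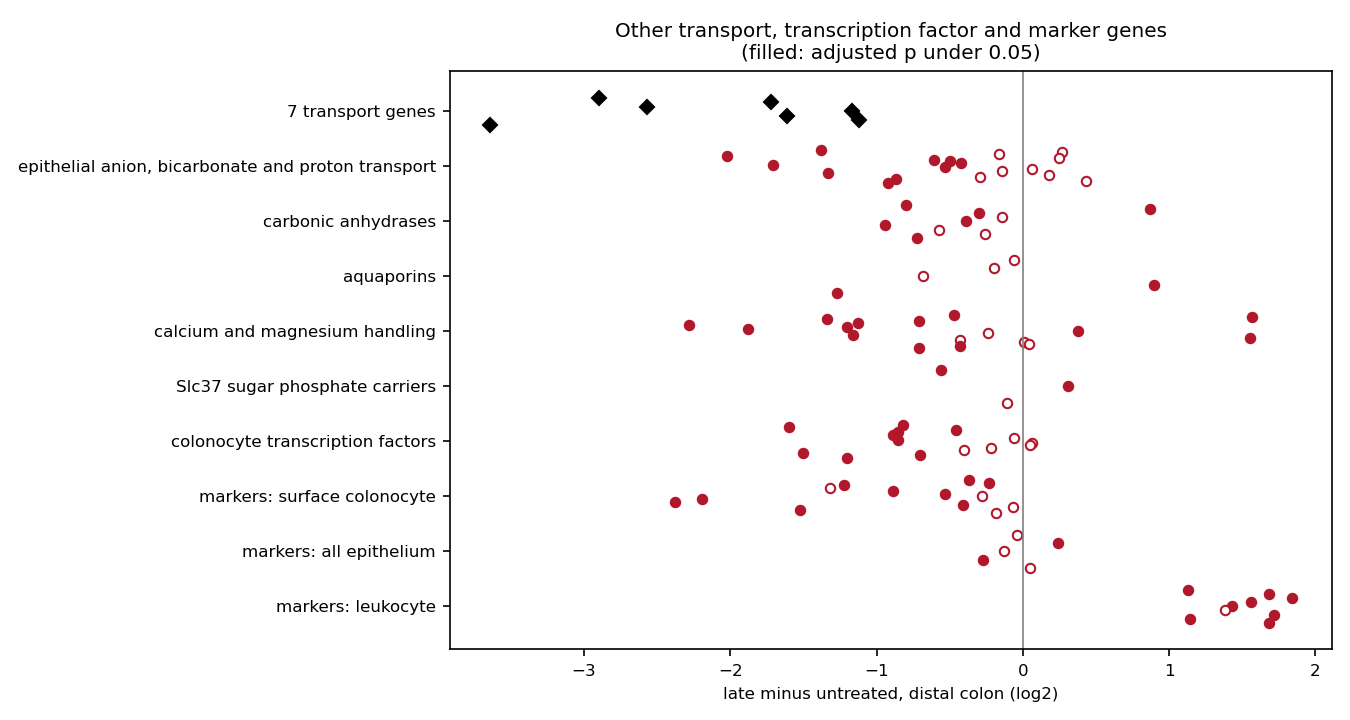
Late minus untreated difference in the distal colon (log2) for the 7 transport genes (black diamonds) and for the tested genes of 9 lists (circles), filled where the adjusted p in limma was under 0.05. Most transport and transcription factor genes that were called lie left of 0, the leukocyte markers lie right of it, and the 7 members range from -3.64 to -1.12.

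Of 14 colonocyte transcription factors tested (15 listed), 9 were called lower in late distal colon and none higher, with a median of -0.76. Hnf4g (-1.60 ± 0.22), the mineralocorticoid receptor Nr3c2 (-1.50 ± 0.15) and Vdr fell most. Klf4 (-0.89 ± 0.11), Cdx2 (-0.85 ± 0.19) and Hnf4a (-0.82 ± 0.16) also fell, and Klf5 (-0.06 ± 0.11) and Elf3 (0.05 ± 0.15) were not called. In early distal colon only Vdr was called (-0.59 ± 0.18), and in the proximal colon limma called none at either stage (0 early and 1 late at an unadjusted p under 0.05). Among 13 markers of surface colonocytes (16 listed), 9 were called lower in late distal colon and none higher (median -0.53), led by Mep1a (-2.38 ± 0.27), Tmigd1 (-2.19 ± 0.61) and Sult1a1 (-1.52 ± 0.19). Krt20, which marks the same cells, moved by -0.37 ± 0.13, and Muc13 was at -0.07 ± 0.09. The 13 genes averaged -1.39 to -0.57 in late distal arrays (median -0.98), and -0.38 to 0.77 in untreated distal ones (median -0.23).

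The genes most like each member were found by the root mean square difference of the 2 profiles, each centred on its own mean, over the 28 arrays. For Aqp8, whose own spread was 1.32, the nearest were Dpep1 (0.39), Mep1a (0.48) and Slc9a2 (0.48), and for Slc26a3 (spread 0.72) they were Akr1c14 (0.19), Slc26a2 (0.25) and Nr3c2 (0.26). Car4 (spread 0.74) was nearest to Clic5 (0.28), Abat (0.32) and Lrig3 (0.35), and Car1 (spread 0.71) to Cmbl (0.28), Acaa2 (0.29) and Ovol1 (0.32). Trpm6 (spread 1.18) was nearest to Slc20a1 (0.47), Maob (0.50) and C85328 (0.52). The nearest genes of Slc37a2 (spread 1.75) were less close, Aadac (0.80), Pla2g3 (0.85) and Dpyd (0.85), and those of S100g (spread 1.10) were the least close for its spread, Per2 (0.74), Mkx (0.75) and the gene listed as C1orf51 (0.76). Among the 7 themselves, the closest pair was Slc26a3 and Car4 (0.36) and the farthest S100g and Slc37a2 (1.45).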

How the data were processed

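Per the labels' protocols, the authors homogenised tissue in Trizol, amplified total RNA with NuGEN Ovation systems and labelled the cDNA with biotin. The deposited values are log2 expression per probe set, made with RMA, and Partek 6.5 is also named, per the submitters' processing notes. A genome build is not given in the sources used here. A second deposited table holds the authors' group means (log2), a signed fold change given as a score (untreated over treated, with no value between -1 and 1), and the authors' p-values with step-up adjustment. Those group means matched means computed from the values to within 0.0051.

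Gene names came from that table (26933 probe sets) and were matched to RefSeq mouse symbols, giving 14123 genes, each by its highest-mean probe set; members were matched without regard to case, and members and lists were chosen with earlier results of these data known. Limma 3.58.1 (R 4.3.3) fitted 1 model of 6 group means to the 28 arrays, with no covariate (22 residual and 3.78 prior degrees of freedom). P-values were adjusted by Benjamini and Hochberg over all genes of a comparison. The comparison of late minus early between the regions was added after the others. The code was tested on simulated data. The labels do not say whether replicate numbers, which groups share, pair the samples. Deviations of same-numbered proximal and distal arrays correlated from -0.233 to 0.691, and the model treated all arrays as independent. Alternatives changed the probe set, filter, normalization, weights, fitted arrays and variance model, and left out arrays. The number of arrays limits the precision. Named genes are the members, the 3 nearest genes of each, and from each list the 3 largest called late distal differences, plus others where a list is described. Figures used matplotlib 3.10.9 and tables pandas 2.3.3 in Python 3.11.15.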

Additional observations from a re-analysis of the deposited data

Results flagged for a closer look

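Over all members, 28 sets of 4 to 6 arrays were examined, each of 1 gene in 1 group. In 4 of these, 1 array stood far from the others of its group, where chance gives about 1 in 20 for independent sets. All 4 came from untreated proximal 1 or untreated distal 3, so they are not independent. Each value is the gap to the nearest array as a share of the range of the group. For Car1 it was 0.972 in untreated proximal 1, the lowest of 6, and 0.674 in untreated distal 3, the highest of 6. For Car4 it was 0.677 in untreated distal 3, the lowest of 6, and for Slc37a2 it was 0.943 in untreated proximal 1, the lowest of 6. Both arrays also carry the posterior Hox levels of the other region. Whether their labels were exchanged was not tested.

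The late response differed between the regions for 6 genes, by the interaction term of limma with an adjusted p under 0.05 (8.49% of all genes were called lower). The distal minus proximal values were -2.81 for Aqp8, -1.54 for Slc26a3, -2.04 for Trpm6, -1.25 for Car1, -1.53 for Car4 and -3.31 for Slc37a2. The change from early to late differed for 5 genes, where 0.552% of all genes were called lower. The values were -2.69 for Aqp8, -1.46 for Slc26a3, -2.63 for Trpm6, -1.82 for Car4 and -3.30 for Slc37a2. None of these 5 was called without early proximal 2 or without early distal 1. Car4 lost its call without most other single arrays as well.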

How the results depend on the processing

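Of 3556 repeats of the 84 member differences under 43 other settings, 3403 kept direction and side of the threshold, 131 lost the call, 22 gained it and 0 reversed. The late distal fall held for 6 genes in every setting run, and S100g lost its call in 15. Leaving out 1 array at a time, the number of members called was 1 to 3 for early distal, 6 to 7 for late distal, 2 to 5 for late against early distal, 0 to 3 for early proximal, 0 to 1 for late against early proximal, 6 to 7 for the late regions, 6 to 7 for the late response and 0 to 6 for the early-to-late difference between regions. It stayed 0 for the untreated regions, late proximal and the early response, and 1 for the early regions. The lowest counts came without early distal 1 for late against early distal, without early proximal 2 for early proximal, and without early distal 2 or 3 for early distal.

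Among the other settings, the untreated regions gave 1 call (Car1) with array weights and without the 2 arrays with the Hox levels of the other region. Early distal gave 1 with the replicate block, with untreated arrays 1 to 3 alone and without the arrays with pancreatic markers. Early proximal gave 1 with the replicate block and 0 with untreated arrays 1 to 3 alone. Late against early proximal gave 2 with array weights, and 0 with all probe sets, an intensity trend and robust prior, the compared groups alone, the replicate block, untreated arrays 1 to 3 alone, without the pancreatic arrays and without late proximal 3 and 4. The early response gave 1 with array weights. The early-to-late difference between regions, added with its alternatives after seeing the data as was the setting without late proximal 3 and 4, gave 3 with all probe sets, repeated quantile normalization or untreated arrays 4 to 6 alone, and 0 with the compared groups alone, with untreated arrays 1 to 3 alone or without late proximal 3 and 4. The causes were not tested. Some of these settings also hold fewer arrays or test more probe sets, and the part of this in the counts was not tested either.

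Replicate numbers are shared by the groups, but same-numbered arrays did not deviate together in every pair (correlations from -0.233 in late pair 3 to 0.691 in early pair 1; early pair 2 had 0.55 and early pair 3 -0.022), and not every array correlated best with its own number, so the block is given only here. Calls were also counted over all genes, or over all probe sets in the setting that tested those. They ranged from 363 to 5054 for early distal (1592 as reported) and 149 to 3945 for early proximal (1072). The range was 0 to 5101 for the untreated regions (1384) and 15 to 2644 for late against early proximal (94). For late proximal it was 2 to 871 (3), for the early regions 17 to 1596 (268) and for the early response 0 to 375 (0). For the late response it was 1359 to 5187 (2739), and for the early-to-late difference between regions 293 to 1301 (537). For late against early distal it was 1673 to 6390 (3398), and for the late regions 3023 to 10071 (5208). For late distal it was 5861 to 14183 (6852). The upper ends 6390, 10071 and 14183 came with all probe sets tested. They count probe sets and cannot be compared with the counts of genes. The other upper ends came with array weights.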
